A study of Mus musculus with 36 samples.

Results

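The stroma of fetal mammary glands that lack estrogen receptor α (ERα) was compared after exposure to the synthetic estrogen ethinylestradiol (EE2) and after exposure to vehicle. The members are the stroma arrays that the labels assign to the ER-alpha knockout null genotype (ERKO, ERα(−/−)) and to one of these exposures. They number 6 of the 36 arrays of the study, 3 for EE2 and 3 for vehicle. The EE2 dams carried osmotic pumps that delivered 10 ng of EE2 per kg of body weight per day from E8, and the vehicle dams carried pumps with the solvent dimethylsulfoxide alone. The tissue was taken at E19 from female fetuses on the C57BL/6 background, as the fourth inguinal gland, and the peri-ductal stroma within about 100 µm of the epithelium was captured by laser. Both parents carried 1 null allele of the ERα gene, so all dams had a functional copy, and the pumps exposed the dam as well as the fetus. A sample was the stroma of 1 gland, and the 3 samples of a group came from 3 litters. As each dam carried a single exposure, EE2 and vehicle glands never shared a dam. The other stroma groups, used only for the estimate of the spread and for values set beside these, were ERKO stroma after 250 ng of bisphenol A (BPA) per kg per day and wild type (ERα(+/+)) stroma after EE2, BPA and vehicle, with 3 arrays each.

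EE2 is a potent agonist of both nuclear estrogen receptors, ERα, encoded by Esr1, and ERβ, encoded by Esr2. The liganded receptors bind estrogen response elements in DNA and recruit coactivators, and classical targets include the progesterone receptor gene Pgr and Greb1. In the fetal gland the mesenchyme around the ducts is the site of ERα, and it directs growth of the ducts through matrix and secreted signals while the fat pad precursor forms nearby. Comparing EE2 with vehicle in ERKO stroma asks which EE2-associated differences are seen without ERα. The values are linear probe set intensities. A probe set is the group of oligonucleotides that reports a transcript, and intensities of different probe sets are not compared with each other. The level of 100, below which the study scored a transcript as negative, is used as the limit of a dim signal.

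Array medians were 30.5, 24.5 and 24.5 in EE2 stroma, against 38.3, 23.6 and 21.3 in vehicle stroma. The ratio of 3′ to 5′ signal for Gapdh, an array control that is higher where RNA is shorter, was 15.4, 16.2 and 20.8 in EE2 stroma, against 12.8, 14.0 and 11.8 in vehicle stroma. The groups did not overlap in this ratio (exact permutation test, two-sided, p = 0.1, the smallest that 3 against 3 arrays can give, and 1 after adjustment over 18 array measures). The actin ratio of 3′ to 5′ signal overlapped, with 1.28, 1.04 and 1.30 in EE2 stroma, against 0.92, 0.92 and 1.19 in vehicle stroma. Its exact permutation test gave p = 0.2. The Gapdh ratio of 3′ to middle signal was 3.43, 3.74 and 3.67 in EE2 stroma, against 3.38, 7.42 and 6.19 in vehicle stroma. The Gapdh ratios exceed the upper limit that the paper states for housekeeping genes, and the actin ratios do not. The part of RNA length in the differences below was not tested. Of 27 fibroblast genes measured, 26 had a mean of 100 or more in EE2 or vehicle stroma, with sums of 73272 to 74986 in EE2 stroma, against 52526 to 87287 in vehicle stroma. The sum of 38 epithelial genes was 5783 to 10591 in EE2 stroma, against 3919.9, 4240.2 and 23083 in vehicle stroma, so vehicle replicate 3 carried the most epithelial signal. EE2 replicate 3 carried high skeletal muscle signal, described below.

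The Esr1 probe sets were dim. Probe set 1435663_at had 25.7, 53 and 46.6 in EE2 stroma, against 26.3, 34.6 and 37.6 in vehicle stroma, and in wild type stroma 51.5, 20.3 and 213 after EE2, against 50.4, 201 and 397 after vehicle. The values of ERKO stroma thus all lay under 100, and 3 of the 6 wild type values lay above it. A further Esr1 probe set, 1460591_at, had 96.5, 114 and 23.2 in EE2 stroma, against 29.6, 48.7 and 53.2 in vehicle stroma. Which exons of Esr1 these probe sets report is not given in the sources used here, and the null allele can leave other exons transcribed, so the signal checks the genotype only in part.

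No probe set passed the test of EE2 against vehicle in ERKO stroma after adjustment. Across 45101 probe sets, limma with Benjamini-Hochberg adjustment called 0 at an adjusted p under 0.05, and the smallest adjusted p was 1. At an unadjusted p under 0.05 there were 1875 probe sets (4.16%), of which 672 (1.49%) were higher and 1203 (2.67%) lower in EE2 stroma. The methods' t-test, at an unadjusted p under 0.05 and at least a 2-fold difference of group means, gave 1143 probe sets (2.53%), of which 411 (0.911%) were higher and 732 (1.62%) lower, and 0 after Benjamini-Hochberg adjustment. The median log2 difference over all probe sets was −0.04. After quantile normalization limma gave 2375 probe sets (5.27%) at an unadjusted p under 0.05, 1151 (2.55%) higher and 1224 (2.71%) lower, again with 0 after adjustment, and the methods' t-test gave 1203 (2.67%). The 3 EE2 arrays and the 3 vehicle arrays did not overlap for 4250 probe sets (9.42%), 1619 (3.59%) with EE2 higher and 2631 (5.83%) with EE2 lower. The genes named below are therefore given by their values and not as changes.

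The excess of lower over higher probe sets lay among dim signals. Of 15067 probe sets whose mean was under 20 in both groups, 187 were higher and 563 lower at an unadjusted p under 0.05. Of 10311 with a higher group mean of 100 to 500, 196 were higher and 131 lower, and of 4370 at 500 or more, 29 were higher and 31 lower. The precision followed the signal. The median standard error of the log2 difference was 1.11 under 20 and 0.67 at 500 or more, which gives 95% intervals of about 5.1-fold and 2.68-fold to either side. An observed difference under 2.68-fold thus did not reach an unadjusted p under 0.05 for a bright probe set with the median standard error. The fit used a common prior spread for all signal levels. The share of probe sets at that p was 4.98% under 20 and 1.37% at 500 or more. Without vehicle replicate 1, the brightest of the 6 arrays, 1624 probe sets were higher and 911 lower.

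**Figure D1:**
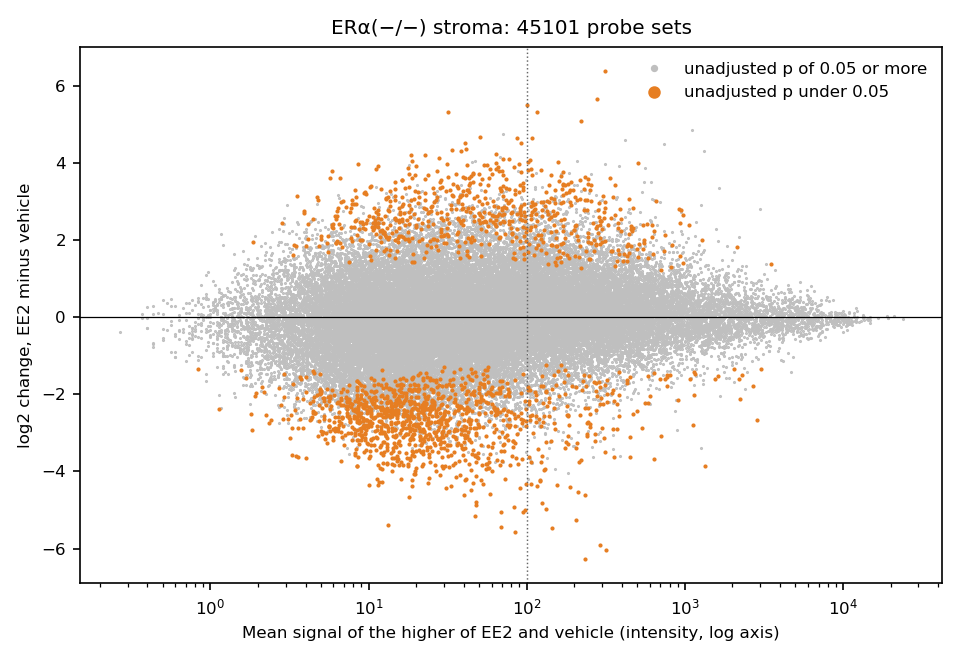
Log2 difference between EE2 and vehicle in ERα(−/−) stroma (vertical axis) against the mean signal of the higher group (horizontal log axis), 1 point per probe set for 45101 probe sets, with those at an unadjusted p under 0.05 in orange and the level of 100 dotted. Orange points below 0 crowd at signals under 100, and the 60 orange points at 500 or more split into 29 above and 31 below 0.

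Genes of estrogen signalling were read first, because EE2 acts through its receptors. Esr2, which encodes the remaining nuclear receptor for EE2, had 8.2, 42.5 and 9.2 in EE2 stroma, against 14.8, 50 and 2.6 in vehicle stroma, all under 100 and overlapping. Its log2 difference was 0.25 ± 1.10 (SE, 95% interval −2.07 to 2.56). Gper1, a membrane receptor that binds estrogens, had 89.2, 221 and 35.6 in EE2 stroma, against 66.5, 68.2 and 128 in vehicle stroma. EE2 replicate 2 was the highest of these and EE2 replicate 3 the lowest, and the log2 difference was 0.09 (95% interval −1.98 to 2.16). Esrrg, an orphan receptor related to ERα, had 29.7, 21 and 41.6 in EE2 stroma, against 24.4, 7.2 and 17.9 in vehicle stroma, with a log2 difference of 1.01 (95% interval −0.70 to 2.73). Of 20 receptors and coregulators measured, 0 passed an unadjusted p under 0.05 in either direction, where 671 of 18194 genes (3.69%) did at 1 probe set each, 1.25% higher and 2.43% lower. The groups did not overlap for 9.49% of all genes, with EE2 higher for 3.64%. The receptors and coregulators had a median log2 difference of 0.13, against −0.01 over all 18194 genes.

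Among 30 estrogen-responsive genes, 0 were higher and 1 was lower at an unadjusted p under 0.05, and 0 passed adjustment. Of all genes, 1.25% were higher and 2.43% lower at that p. After quantile normalization 1 of the 30 was higher and 1 lower at that p, beside 2.32% higher of all genes. The lower gene as deposited was Pgr at probe set 1439527_at, with 9.3, 0.5 and 6.4 in EE2 stroma, against 37.4, 22 and 36.3 in vehicle stroma. The groups did not overlap, but all 6 values were under 100. The log2 difference was −3.32 ± 1.43 (SE; 95% interval −6.36 to −0.29, limma adjusted p = 1). The other Pgr probe sets, which were dimmer, had log2 differences of 0.50 and 0.47, so the gene's probe sets did not run the same way. Greb1, a coregulator of steroid receptors and a classical target, had 55.9, 14.7 and 17.8 in EE2 stroma, against 22.8, 4 and 3.6 in vehicle stroma at its brightest probe set. All of these were under 100 as well, and the log2 difference was 1.83 ± 0.98 (SE; 95% interval −0.25 to 3.90, limma adjusted p = 1).

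Apart from Pgr and Ctsd, the groups overlapped for every gene of this list, beside 9.49% of all genes without overlap. Ccnd1, which encodes cyclin D1 of the G1 phase, had 1214, 1121 and 1276 in EE2 stroma, against 1082, 332 and 1859.5 in vehicle stroma. Vehicle replicate 2 was low and vehicle replicate 3 high, with EE2 stroma between them, and the log2 difference was 0.46 (95% interval −0.88 to 1.80). Igf1, a growth factor of the stroma, had 1345, 1154 and 781 in EE2 stroma, against 1012, 1239.6 and 544 in vehicle stroma. Igfbp4, a carrier of insulin-like growth factors, had 6263, 4689.5 and 7195 in EE2 stroma, against 7195, 5321 and 6054 in vehicle stroma. Their log2 differences were 0.28 and −0.04. Ctsd, the lysosomal protease cathepsin D, had 1455, 935 and 1039 in EE2 stroma, against 505, 923 and 388 in vehicle stroma. EE2 stroma was the higher group here and did not overlap with vehicle stroma, with a log2 difference of 0.99 ± 0.70 (SE; 95% interval −0.49 to 2.46, limma adjusted p = 1). Myc, the growth regulator, had 319.9, 424 and 599.7 in EE2 stroma, against 588, 47.9 and 135 in vehicle stroma, so that vehicle replicate 1 lay among the EE2 values. The list had a median log2 difference of 0.28, and −0.03 without vehicle replicate 2. Of 21 genes of steroid and xenobiotic metabolism and of 24 other nuclear receptors, 0 were higher at an unadjusted p under 0.05. Pgr, which the second list also holds, was the only one lower at that p. After quantile normalization 1 of the 24 nuclear receptors was higher and 1 lower at that p, and 0 of the 21 genes in either direction.

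Other receptors and targets that the study had named were next. The glucocorticoid receptor gene Nr3c1 had 757, 351 and 287 in EE2 stroma, against 315, 644 and 162 in vehicle stroma. The thyroid hormone receptor gene Thra had 717, 981 and 338 in EE2 stroma, against 523, 979 and 658 in vehicle stroma. The groups overlapped for both, with log2 differences of 0.41 (95% interval −1.38 to 2.20) and −0.17 (95% interval −1.37 to 1.03). Tnc, which encodes the matrix protein tenascin C, had 1209.9, 1401 and 1153 in EE2 stroma, against 1688, 522 and 1865 in vehicle stroma, and vehicle replicate 2 was the lowest. Its log2 difference was 0.08 (95% interval −1.26 to 1.42). Trim29, which encodes a tripartite motif protein, was under 100 in all 6 arrays, with a log2 difference of 0.19 (95% interval −1.01 to 1.39).

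The largest differences lay in dim to middling signals. A total of 193 genes passed an unadjusted p under 0.05 both as deposited and after quantile normalization, without overlap of the groups and with a mean of at least 100 in the higher one. Of these, 105 were higher and 88 lower in EE2 stroma. The 12 largest differences on each side are described. They were chosen on this contrast, so their values are a description. The lower group had a mean under 50 in each of the 24, so the size of a log2 difference depends on how low values are treated. With 16 added to every intensity, the 12 positive log2 differences, 3.66 to 6.38 as deposited, were 2.06 to 3.62, and the 12 negative ones, −6.27 to −3.40 as deposited, were −2.71 to −2.04.

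Of the 12 higher genes, Cdkn1a, which encodes the cell cycle inhibitor p21, had 155, 210.5 and 140 in EE2 stroma, against 38.6, 14.4 and 3.2 in vehicle stroma at probe set 1421679_a_at. Every EE2 value was above 100 and every vehicle value below 40, a log2 difference of 3.78 ± 0.95 (SE; 95% interval 1.76 to 5.80, limma adjusted p = 1). The brighter Cdkn1a probe set, 1424638_at, had 759, 342 and 1043 in EE2 stroma, against 667, 1291 and 142 in vehicle stroma. The groups overlapped there, and the log2 difference was 0.38 (95% interval −1.36 to 2.13). Mcm6, a subunit of the replicative helicase, had 161, 134 and 175 in EE2 stroma, against 81.1, 6.3 and 1.7 in vehicle stroma, with vehicle replicate 1 well above the other vehicle arrays. Its brighter probe set, 1438852_x_at, had 2854, 1949.6 and 3479 in EE2 stroma, against 3560.3, 1417 and 2439 in vehicle stroma, a log2 difference of 0.22. Hdgfl2, which encodes a chromatin reader related to hepatoma-derived growth factor, had 68.4, 225 and 20.9 in EE2 stroma, against 3.3, 5.6 and 3.6 in vehicle stroma. Its log2 difference was 4.08 ± 0.97 (SE; 95% interval 2.03 to 6.13, limma adjusted p = 1), and the other probe sets of the gene had log2 differences of 1.67 and 1.27. Dleu2, the noncoding host transcript of the miR-15a and miR-16 genes, had 279, 71.7 and 311 in EE2 stroma, against 30.1, 7.4 and 0.7 in vehicle stroma, the highest vehicle value again in replicate 1.

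Of the other higher genes, Ifit3 and Helz2 are given with the interferon-stimulated genes. Tlcd3b, linked to ceramide synthesis, had 717, 119.8 and 103 in EE2 stroma, against 3.9, 2.2 and 1.8 in vehicle stroma. Vehicle stroma stayed under 5 and EE2 replicate 1 stood far above the other EE2 arrays, and the log2 difference of 6.38 ± 2.10 (SE; 95% interval 1.92 to 10.83, limma adjusted p = 1) was 3.62 with 16 added to every intensity. Slc38a9, the arginine sensor of the lysosome, had 63.5, 79.9 and 164 in EE2 stroma, against 20.7, 4 and 2.3 in vehicle stroma. Itsn1, a scaffold of endocytosis, had 124, 246 and 123 in EE2 stroma, against 92.2, 22.4 and 0.9 in vehicle stroma, and its 4 other probe sets with a mean of at least 100 had log2 differences of −0.37 to 0.15. Gigyf2, a repressor of translation, had 63.7, 347 and 17.5 in EE2 stroma, against 8.9, 3.6 and 5.5 in vehicle stroma. Asph, an aspartate β-hydroxylase, had 40.3, 64.6 and 266 in EE2 stroma, against 6.5, 3.6 and 10.3 in vehicle stroma, and its 3 other probe sets with a mean of at least 100 had differences of −0.96 to −0.10. Clstn2, a calsyntenin of the cadherin family, had 28, 30 and 266 in EE2 stroma, against 10.2, 1.5 and 0.9 in vehicle stroma. The only EE2 value above 100 lay in replicate 2 for Gigyf2 and in replicate 3 for Asph and Clstn2.

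Of the 12 lower genes, Pck1, which encodes the cytosolic phosphoenolpyruvate carboxykinase of gluconeogenesis and glyceroneogenesis, had 0.4, 1.4 and 0.1 in EE2 stroma, against 684, 4.9 and 7.7 in vehicle stroma at probe set 1455209_at. Vehicle replicate 1 alone was above 100, and the other vehicle values were under 10. Its log2 difference was −6.27 ± 1.66 (SE; 95% interval −9.78 to −2.76, limma adjusted p = 1), and it was −2.08 with 16 added to every intensity and −4.00 without vehicle replicate 1. The brighter Pck1 probe set, 1423439_at, had 214, 237 and 122 in EE2 stroma, against 117, 459 and 17.3 in vehicle stroma, a difference of 0.91. Bcat1, the cytosolic transaminase of branched-chain amino acids, had 4.2, 1.8 and 4.3 in EE2 stroma, against 213, 133 and 26.3 in vehicle stroma. The brighter Bcat1 probe set, 1450871_a_at, had 470, 539 and 799 in EE2 stroma, against 445, 148 and 406 in vehicle stroma, with EE2 the higher group and a log2 difference of 0.97. Gfpt1, the rate-limiting enzyme of the hexosamine pathway, had 7.2, 105 and 27.4 in EE2 stroma, against 340.4, 260.5 and 334 in vehicle stroma. All vehicle values exceeded 250 and EE2 replicate 2 came closest to them, a log2 difference of −3.49 ± 1.06 (SE; 95% interval −5.73 to −1.26, limma adjusted p = 1). The brightest Gfpt1 probe set had a log2 difference of −0.10. Cds1, a synthase of CDP-diacylglycerol in phospholipid synthesis, had 2.4, 15.4 and 2.2 in EE2 stroma, against 23.9, 37.4 and 328 in vehicle stroma, the high value lying in vehicle replicate 3, the array of high epithelial signal, whose part in this was not tested.

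The remaining lower genes encode proteins of varied roles. Wdr35, a component of intraflagellar transport in cilia, had 41.7, 14.5 and 4.3 in EE2 stroma, against 88.1, 148 and 429 in vehicle stroma, with a log2 difference of −3.69 ± 0.96 (SE; 95% interval −5.72 to −1.67, limma adjusted p = 1). Stk35, a protein kinase, had 12.6, 5.4 and 56.1 in EE2 stroma, against 226, 194 and 217 in vehicle stroma, the 3 vehicle arrays close together and all EE2 arrays under 60. Btbd11, which encodes an ankyrin repeat protein, had 23.3, 1 and 21.1 in EE2 stroma, against 74.9, 161 and 153 in vehicle stroma, and its probe set 1428377_at had 10, 0.8 and 91 in EE2 stroma, against 50.9, 23.5 and 314 in vehicle stroma, with overlap. Fancm, a DNA translocase of the Fanconi anemia pathway, had 20, 18.2 and 1.9 in EE2 stroma, against 129, 35.1 and 190.2 in vehicle stroma, while its probe set 1442106_at had a log2 difference of 3.14. Zfp687, a zinc finger protein, had 71.1, 35.1 and 1.7 in EE2 stroma, against 80.3, 359.5 and 174 in vehicle stroma. In each of these 5 genes at least 2 vehicle arrays and no EE2 array lay above 100. Tanc2, a synaptic scaffold, had 3.5, 6.6 and 0.8 in EE2 stroma, against 49.6, 7 and 506 in vehicle stroma. Htra4, a secreted serine protease, had 1, 1.2 and 2.5 in EE2 stroma, against 112, 284 and 3 in vehicle stroma, with vehicle replicate 3 near the EE2 level. Prp2, a proline-rich protein, had 0.7, 0.2 and 0.5 in EE2 stroma, against 4.9, 867 and 3.6 in vehicle stroma. In Tanc2 and Prp2 a single vehicle array exceeded 100.

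Of the 24 genes, 10 had a further probe set with a mean of at least 100, 17 such probe sets in all. Of these 17, 8 had the sign of the leading probe set and 0 had both that sign and an unadjusted p under 0.05, beside 4.16% of all probe sets at that p in either direction.

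**Figure D2:**
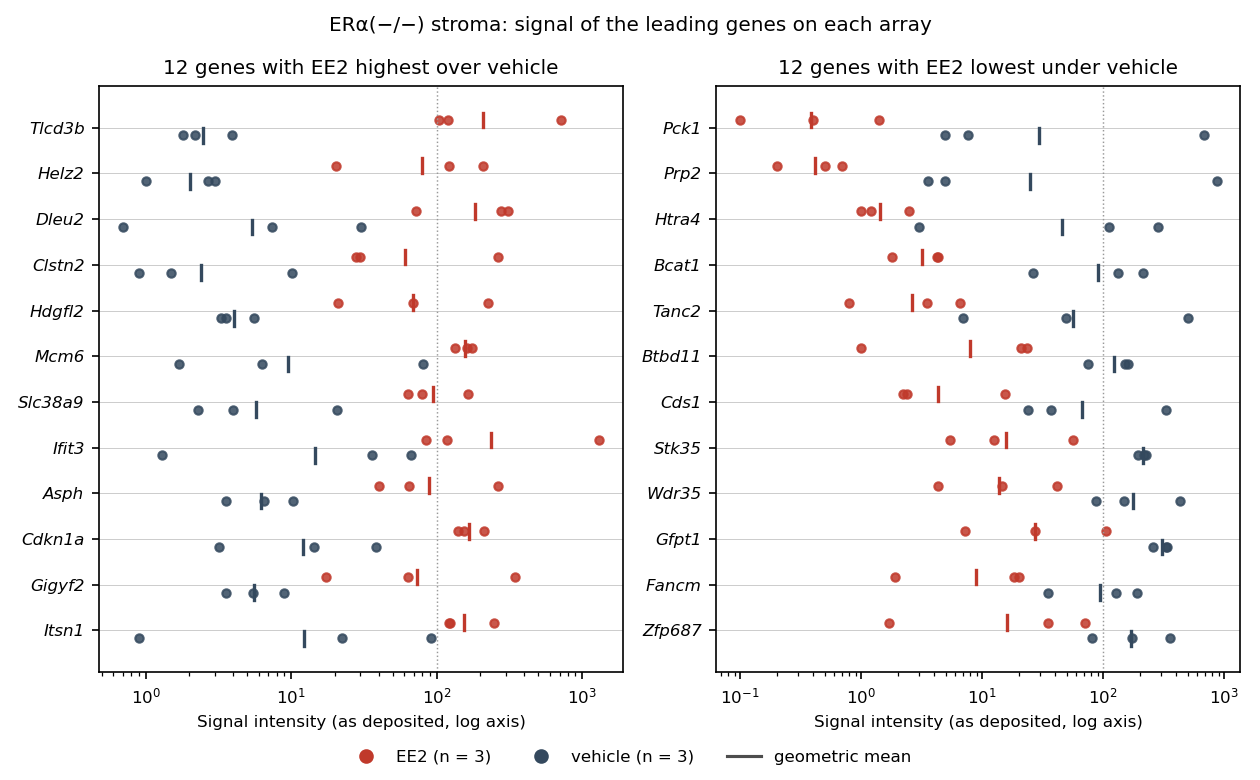
Signal of the 12 genes with the largest positive (left) and the 12 with the largest negative (right) log2 difference on each array of ERα(−/−) stroma, on log axes, with 3 EE2 arrays in red above 3 vehicle arrays in blue, the geometric mean as a bar and the level of 100 dotted. The groups are separate for each gene because the rule required it, and in most genes the spread within a group is several-fold, as in Pck1, where vehicle replicate 1 is at 684 and the other vehicle arrays are at 4.9 and 7.7.

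Bright genes were few. Of 2765 probe sets with 1 gene symbol and a mean of at least 500 in both groups, 6 passed an unadjusted p under 0.05, 1 higher and 5 lower. They are named here after their values were seen. Rapgef3, which encodes the cAMP-activated exchange factor Epac1, had 3278, 1811 and 1356 in EE2 stroma, against 1368, 634 and 211 in vehicle stroma. EE2 stroma was the higher group, although vehicle replicate 1 lay just above EE2 replicate 3, and the log2 difference was 1.82 ± 0.68 (SE; 95% interval 0.37 to 3.26, limma adjusted p = 1). Elovl1, an elongase of long-chain fatty acids, had 779, 377 and 449.7 in EE2 stroma, against 1865, 2222 and 2579.9 in vehicle stroma. The groups were clearly apart, with a log2 difference of −2.11 ± 0.73 (SE; 95% interval −3.66 to −0.56, limma adjusted p = 1). Drg1, a GTP-binding protein, had 827, 617 and 748 in EE2 stroma, against 2099, 2049 and 2489.8 in vehicle stroma, a log2 difference of −1.60. Gna13, the G protein subunit α13, had 759, 509.6 and 351 in EE2 stroma, against 1439.5, 1509 and 1708 in vehicle stroma, a difference of −1.59, and its 5 other probe sets with a mean of at least 100 ran from −1.16 to 1.53. Snrpb, a core protein of the spliceosome, had 737, 396 and 1387 in EE2 stroma, against 1555, 3819.6 and 2769 in vehicle stroma, with a difference of −1.78. Ebf1, a transcription factor of early fat and B cell differentiation, had 799, 719 and 642 in EE2 stroma, against 1280.1, 3554 and 1338 in vehicle stroma at probe set 1416301_a_at, a difference of −1.35. Ebf1 probe set 1439789_at ran the other way, with 632, 412 and 342 in EE2 stroma, against 229.7, 99.6 and 187 in vehicle stroma and a difference of 1.46 (95% interval −0.07 to 2.99).

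Interferon-stimulated genes had the highest median of the 19 pathway lists. These genes encode antiviral proteins, and type I interferons induce them through a promoter sequence called the interferon-stimulated response element (ISRE). Of 25 measured, 21 had a positive log2 difference, 1 was higher and 0 lower at an unadjusted p under 0.05, beside 1.25% higher and 2.43% lower of all genes. The groups were without overlap for 2, Ifit3 and H2-D1, both with EE2 higher, beside 3.64% of all genes. After quantile normalization 4 were higher at that p, Ifit2, Ifit3, Tap1 and H2-D1, beside 2.32% of all genes, and 0 were lower. The median log2 difference was 0.79, against −0.01 over all genes, and 0.84 after quantile normalization. The 1 gene at that p was Ifit3, with 84.7, 1317 and 117 in EE2 stroma, against 36, 66.4 and 1.3 in vehicle stroma. Its log2 difference was 4.01 ± 1.58 (SE; 95% interval 0.67 to 7.36, limma adjusted p = 1). Of its 3 EE2 values, that of replicate 2 was more than 10 times the others. The 200 bases before the start of Ifit3 and of Ifit1, a gene of the same family and chromosome, are shown because both carry the sequence through which interferon is known to act. Capitals mark matches on either strand to an ISRE core, read here as GAAA, any 2 bases and GAAA again, as read 5′ to 3′ on the strand of the gene from RefSeq, GRCm38.p6.
Ifit3, chr19:34583329-34583528, plus strand: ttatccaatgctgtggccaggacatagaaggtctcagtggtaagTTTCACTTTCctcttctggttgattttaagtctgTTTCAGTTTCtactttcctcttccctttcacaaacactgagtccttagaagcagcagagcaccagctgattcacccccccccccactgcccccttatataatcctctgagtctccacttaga
Ifit1, chr19:34640689-34640888, plus strand: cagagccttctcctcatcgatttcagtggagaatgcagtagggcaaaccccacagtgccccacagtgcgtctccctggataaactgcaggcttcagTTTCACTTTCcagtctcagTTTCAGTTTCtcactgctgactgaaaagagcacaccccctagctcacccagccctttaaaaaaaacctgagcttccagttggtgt

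Each of these stretches, picked because they carry the motif, held 2 matches. Ifit1 was not among the genes at an unadjusted p under 0.05, as deposited or after quantile normalization. Promoter windows of 250 bases before to 50 bases after a gene start held the motif in 3.44% of 32851 windows overall. It was in 9 of 25 windows of the interferon-stimulated genes (36%), windows that cover 21 genes. That list holds genes that interferon is known to induce, so a high share is part of the choice and says nothing of EE2. The motif was in 1 of 28 windows of the 24 leading genes, that of Ifit3, with 22 of the 24 genes in the table. The consensus estrogen response element, read as GGTCA, any 3 bases and TGACC and searched on both strands in the same windows, was in 0.0700% of all windows, in 0 of 33 windows of the estrogen-responsive genes and in 0 of 28 windows of the leading genes. At so low an overall share, 0 in so few windows carries little information. A single GGTCA was in 40.5% of all windows, in 51.5% of those of the estrogen-responsive genes and in 42.9% of those of the leading genes. A match is a description of the letters, and a window without one says nothing of elements elsewhere.

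A single array carried much of the interferon signal. EE2 replicate 2 was the highest of the 6 arrays for 16 of the 25 genes, and more than 5 times all the others for 5. Without it the median log2 difference was 0.17. Ifi35, an interferon-induced protein, had 838, 4232 and 486 in EE2 stroma, against 517, 578 and 775 in vehicle stroma. Rsad2, which encodes the antiviral enzyme viperin, had 126, 1262 and 9.4 in EE2 stroma, against 274, 203 and 7.3 in vehicle stroma, so that vehicle replicates 1 and 2 exceeded EE2 replicate 1. Ifit2, of the same family as Ifit3, had 171, 624 and 70.1 in EE2 stroma, against 85.5, 119 and 2.1 in vehicle stroma, and EE2 replicate 3 was lower than vehicle replicates 1 and 2. Mx1 and Mx2, dynamin-like GTPases, were at 162 and 153 in EE2 replicate 2 and under 25 in the other 5 arrays. In a few genes other EE2 arrays were also high. H2-D1, a class I histocompatibility gene, had 523, 606 and 553 in EE2 stroma, against 315, 304 and 75.7 in vehicle stroma, with no overlap and a log2 difference of 1.53 ± 0.85 (SE; 95% interval −0.27 to 3.33). Class I genes are a family of near-identical copies, so their probe sets can share signal. Irf1, a transcription factor that interferon γ induces, had 506, 135 and 239 in EE2 stroma, against 240.2, 103 and 34.4 in vehicle stroma, where vehicle replicate 1 lay just above EE2 replicate 3. Helz2, a coactivator of nuclear receptors that interferon also induces, had 122, 207 and 20.3 in EE2 stroma, against 2.7, 3 and 1 in vehicle stroma and was among the 12 largest positive differences. B2m, the light chain of class I molecules, was bright throughout, with 3916, 2869 and 3051 in EE2 stroma, against 3715, 4386 and 2956 in vehicle stroma and a log2 difference of −0.16. The median of the list was 0.25 for EE2 minus vehicle in wild type stroma, against 0.05 over all genes. It was 1.28 for BPA minus vehicle in ERKO stroma, which shares the 3 vehicle arrays, against 0.36 over all genes.

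**Figure D3:**
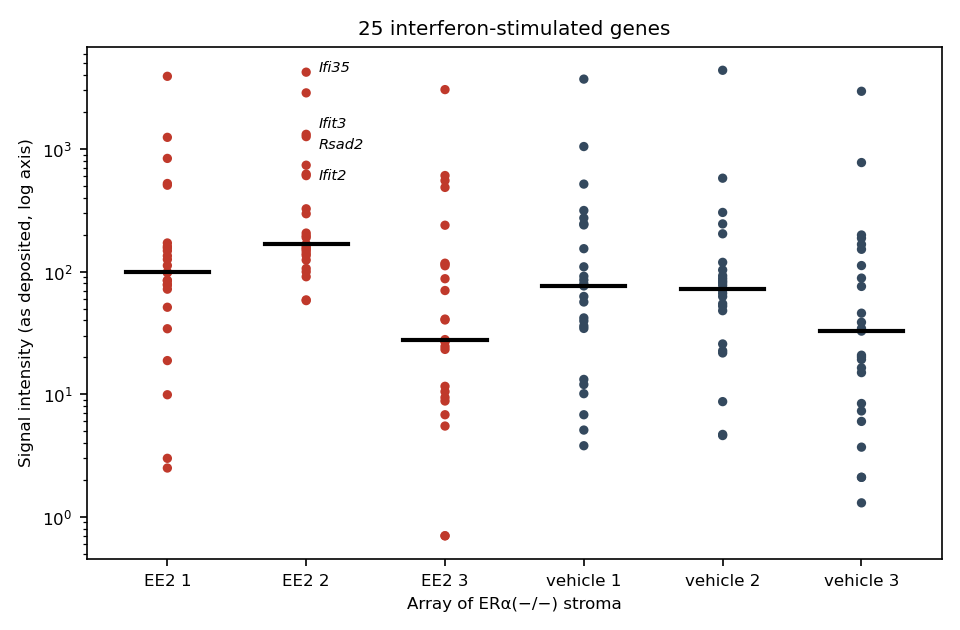
Signal of 25 interferon-stimulated genes (points) on each array of ERα(−/−) stroma, EE2 in red and vehicle in blue, with the median of each array as a bar and a log vertical axis. The bar of EE2 replicate 2 is the highest of the 6 and that of EE2 replicate 3 the lowest, and Ifi35, Ifit3 and Rsad2, beside B2m, exceed 1000 in EE2 replicate 2.

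Skeletal muscle genes separated EE2 replicate 3 from every other array of the group. Contractile genes of skeletal muscle are not those of mammary stroma. The sum over 35 muscle genes was 852, 775 and 52239 in EE2 stroma, against 1156, 851 and 755 in vehicle stroma (exact permutation test, two-sided, p = 0.6, smallest possible 0.1, and 1 after adjustment over the 18 array measures). EE2 replicate 3 was the highest array for 31 of the 35 genes and more than 5 times all others for 25. Myh3, the embryonic heavy chain of myosin, had 67.5, 144 and 8801 in EE2 stroma, against 81.5, 67.3 and 45.5 in vehicle stroma. Myh8, the perinatal heavy chain, had 1, 0.7 and 5926 in EE2 stroma, against 29.8, 0.9 and 6.9 in vehicle stroma. Tnnt3, troponin T of fast fibres, had 21.4, 3.1 and 3918 in EE2 stroma, against 5.6, 1 and 6 in vehicle stroma. Titin (Ttn), nebulin (Neb) and the calcium channel of the sarcoplasmic reticulum (Ryr1) reached 4813, 426 and 710.1 there, and were under 50 on the other 5 arrays.

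The muscle signal gave large differences without calls. Of the 35 genes, 0 passed an unadjusted p under 0.05 in either direction, beside 3.69% of all genes. The groups were without overlap for 0, beside 9.49% of all genes. The median log2 difference was 1.16, and −0.32 without EE2 replicate 3. Of the other stroma arrays, 2 had such sums, wild type EE2 replicate 2 with 49255 and ERKO BPA replicate 1 with 34929.6, and the other 15 arrays had 525 to 1430.3. Without those 3 arrays the fit gave 532 probe sets higher and 1112 lower at an unadjusted p under 0.05, and 0 after adjustment. None of the 24 leading genes is on the muscle list. Asph was nevertheless highest on the array of high muscle signal in both ERKO exposures, with 40.3, 64.6 and 266 after EE2, beside 229.5, 6.7 and 44.4 after BPA in ERKO stroma. Its log2 difference was 3.83, and 3.04 without EE2 replicate 3. In wild type stroma Asph had 83.7, 66.6 and 4.3 after EE2, so replicate 2, the array of high muscle signal, was not the highest. Wild type vehicle stroma had 143, 243 and 5.4. Clstn2 was highest in its group on each of the 3 arrays of high muscle signal. It had 266 there in ERKO EE2, 57.1 in ERKO BPA and 16.7 in wild type EE2 stroma. The part of muscle signal in either gene was not tested.

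**Figure D4:**
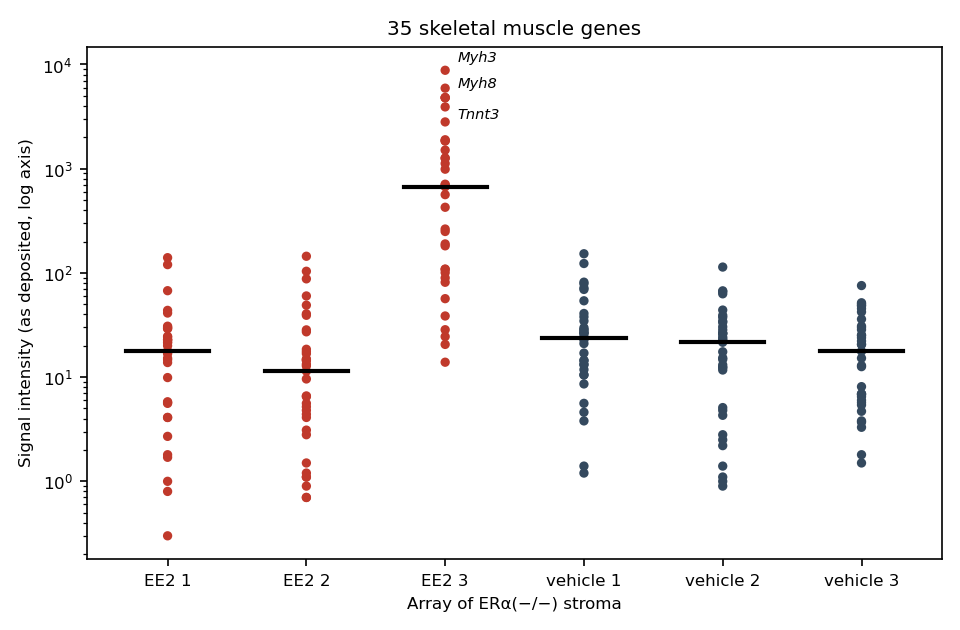
Signal of 35 skeletal muscle genes (points) on each array of ERα(−/−) stroma, EE2 in red and vehicle in blue, with the median of each array as a bar and a log vertical axis. EE2 replicate 3 reaches 8801 for Myh3 and its median lies far above those of the other 5 arrays.

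Genes of the fat pad were bright in both groups. Of 43 genes of adipogenesis and lipid storage, 32 had a positive log2 difference. At an unadjusted p under 0.05, 0 were higher and 1, Ebf1, was lower, beside 1.25% higher and 2.43% lower of all genes. The median was 0.46, and it was −0.03 without vehicle replicate 3. Pparg, the master regulator of fat cell formation, had 1518, 602 and 698 in EE2 stroma, against 891, 942 and 508 in vehicle stroma. Fabp4, the fatty acid carrier of fat cells, had 13418, 11106 and 10917 in EE2 stroma, against 11701, 13189 and 8387 in vehicle stroma. The groups overlapped in both, with log2 differences of 0.19 (95% interval −1.35 to 1.74) and 0.11 (95% interval −0.92 to 1.14). The groups were without overlap for 4 of the 43 genes, 2 with EE2 higher and 2 with EE2 lower, beside 3.64% and 5.85% of all genes. Ebf1, given above, and Fabp5, a fatty acid carrier, were the lower ones. Fabp5 had 8629, 7271 and 8555 in EE2 stroma, against 10082, 9985 and 8950.4 in vehicle stroma, a log2 difference of −0.25. The higher ones encode lipid droplet proteins. Plin4 had 1500.1, 299 and 308 in EE2 stroma, against 199.7, 212 and 128 in vehicle stroma. Cidec had 531, 438 and 477 in EE2 stroma, against 415, 269 and 69.6 in vehicle stroma. The log2 differences of Plin4 and Cidec were 1.56 ± 0.89 (SE; 95% interval −0.33 to 3.44) and 1.28 ± 0.74 (SE; 95% interval −0.29 to 2.85). EE2 replicate 1 was the highest array for 21 of the 43 genes, as for Lpl, lipoprotein lipase, with 8069.9, 5074 and 5277 in EE2 stroma, against 5211, 6725 and 2219.5 in vehicle stroma. The sum of 14 adipocyte markers was 36878 to 51226 in EE2 stroma, against 26331 to 44969 in vehicle stroma. In captured tissue, more fat cells and more RNA per fat cell cannot be told apart.

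The matrix genes were bright. Of 46 measured, all had a mean of at least 100 in one group, and the median log2 difference was 0.08. At an unadjusted p under 0.05, 1 was higher and 0 lower, beside 1.25% higher and 2.43% lower of all genes. The groups were without overlap for 2, both with EE2 higher, beside 3.64% of all genes. The fibrillar collagen gene Col1a1 had 10212, 10978 and 10994 in EE2 stroma, against 11476, 9115 and 11971 in vehicle stroma. Postn, the matrix protein periostin, had 4302, 3929.5 and 4132 in EE2 stroma, against 5354, 3231 and 5376 in vehicle stroma. The groups overlapped for both, with log2 differences of −0.01 and −0.14. The 1 gene at that p was Hspg2, which encodes the basement membrane proteoglycan perlecan. It had 621, 697 and 1436 in EE2 stroma, against 209, 33 and 257 in vehicle stroma. All EE2 values exceeded all vehicle values, a log2 difference of 2.82 ± 1.04 (SE; 95% interval 0.61 to 5.03, limma adjusted p = 1). A further Hspg2 probe set, 1418670_s_at, had 270.3, 395 and 414 in EE2 stroma, against 146, 206 and 167 in vehicle stroma, again without overlap, with a log2 difference of 1.05 ± 0.71 (SE; 95% interval −0.46 to 2.56). Bgn, the proteoglycan biglycan, was likewise without overlap, with 5748, 6554 and 5367 in EE2 stroma, against 3552, 2621 and 4993 in vehicle stroma and a log2 difference of 0.71 (95% interval −0.38 to 1.79).

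The other lists held 0 to 2 genes at an unadjusted p under 0.05, beside 1.25% higher and 2.43% lower of all genes. Of 23 cell cycle inhibitors and p53 targets, Rbl2, a pocket protein of the retinoblastoma family, was higher with 161, 70.6 and 228 in EE2 stroma, against 90.9, 10.3 and 26.3 in vehicle stroma. Cdkn2a, which encodes p16 and p19ARF, was lower with 1.9, 11.2 and 2.2 in EE2 stroma, against 10.4, 26.8 and 23.6 in vehicle stroma, all under 30. Of 33 immediate early and stress genes, the heat shock gene Hspa1a was lower, with 0.6, 17.4 and 0.8 in EE2 stroma, against 81.6, 24.5 and 32 in vehicle stroma, while its near-identical neighbour Hspa1b had 106, 71.4 and 226 in EE2 stroma, against 32.7, 231 and 502 in vehicle stroma. The signals of such near-copies may mix. Ier3, an early response gene, had 127, 242 and 165 in EE2 stroma, against 491, 586 and 500.4 in vehicle stroma without overlap, and missed that p. Bik of 27 apoptosis regulators, Rps16 of 28 ribosomal proteins and Snrpb of 32 splicing factors were lower, with all values of Bik and Rps16 under 40. For proliferation, focal adhesion, mammary mesenchyme signals, oxidative phosphorylation, cholesterol synthesis, glucocorticoid and clock targets and chromatin coactivators, with 17 to 50 genes each, 0 passed in either direction. Their medians lay between −0.06 and 0.26. Among the markers of other cell types, Nkg7 of cytotoxic lymphocytes was higher, and Cd79a of B cells, Hba-a1 of red cells and Col10a1 of growth plate cartilage were lower, each with all 6 values under 40.

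The same exposure in wild type stroma gives values that entered the choice of the 24 genes only through the shared estimate of the spread and the quantile normalization. There too limma called 0 probe sets after adjustment, with 1994 (4.42%) at an unadjusted p under 0.05, 2.04% higher and 2.39% lower after EE2. Of the 12 genes higher in ERKO stroma, 6 had a positive log2 difference in wild type stroma, and of the 12 lower, 4 had a negative one. Only 2 of the 24 passed an unadjusted p under 0.05 in the same direction, and 0 in the opposite one. They were Cdkn1a at 1421679_a_at, with 318, 189.9 and 50.8 after EE2, against 73.1, 49.2 and 10.4 after vehicle in wild type stroma, and Wdr35, with 31.3, 3.3 and 6.7 after EE2, against 40, 24.2 and 85.2 after vehicle. Their wild type log2 differences were 2.12 ± 0.95 and −2.30 ± 0.96 (SE), each with overlap of the groups. Of the receptors and targets named above, a pair is given for wild type stroma after its values were seen. Gper1 had 30.1, 164 and 22.2 after EE2, against 162, 1207 and 599 after vehicle in wild type stroma, a log2 difference of −3.35 ± 0.98 (SE), beside 0.09 ± 0.98 in ERKO stroma, and the difference between the genotypes was 3.44 ± 1.38 (SE; limma adjusted p = 1). Trim29 had 27, 28.8 and 28.6 after EE2, against 67.8, 150.3 and 118 after vehicle in wild type stroma, a difference of −1.92 ± 0.57 (SE), beside 0.19 ± 0.57 in ERKO stroma, and the difference between the genotypes was 2.11 ± 0.80 (SE; limma adjusted p = 1). The sum of 38 epithelial genes in wild type stroma was 7708, 5123 and 14670 after EE2, against 8431, 12443 and 18668 after vehicle. Wild type vehicle replicate 3 had a sum of 23844 over 19 genes of keratinised epidermis, against 184 to 993 on the other stroma arrays. Wild type vehicle replicate 2 was dim, with a median of 12. The part of these signals in the wild type values was not tested. Over 17265 probe sets with a mean of at least 100 in 1 of the 4 groups, the log2 differences of the genotypes had a Pearson r of 0.09, a description across probe sets of the same arrays, which are not independent replicates.

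The difference between the EE2 effects of the genotypes was tested in the same fit. Again 0 probe sets passed adjustment, and 1800 (3.99%) passed an unadjusted p under 0.05, 778 (1.73%) with the more positive log2 difference in ERKO and 1022 (2.27%) in wild type stroma. The 5 genes with the smallest p and a mean of at least 100 in a group were Agap3, Trim45, Ldlrad4, Fank1 and Pxn, each with an adjusted p of 1. Pxn, which encodes the focal adhesion protein paxillin, had 242, 202 and 435 in EE2 stroma, against 66.9, 45 and 39 in vehicle stroma, and in wild type stroma 58, 175 and 70 after EE2, against 159.7, 498 and 192 after vehicle. The ERKO groups did not overlap and the wild type groups did, with log2 differences of 2.50 ± 0.74 in ERKO and −1.48 ± 0.74 in wild type stroma (SE). A brighter Pxn probe set, 1456135_s_at, had a log2 difference of 0.16 in ERKO stroma. Ldlrad4, an inhibitor of transforming growth factor β signalling, had 36, 17.3 and 15.9 in EE2 stroma, against 355, 35 and 152 in vehicle stroma, and in wild type stroma 147, 108 and 216 after EE2, against 66.5, 24.4 and 43.9 after vehicle. EE2 was the lower group in ERKO stroma, where EE2 replicate 1 just overlapped vehicle replicate 2, with a log2 difference of −2.53. It was the higher one without overlap in wild type stroma, with 1.86. Trim45, a ubiquitin ligase, differed mostly in wild type stroma, with log2 differences of 1.78 in ERKO and −5.41 in wild type stroma.

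**Figure D5:**
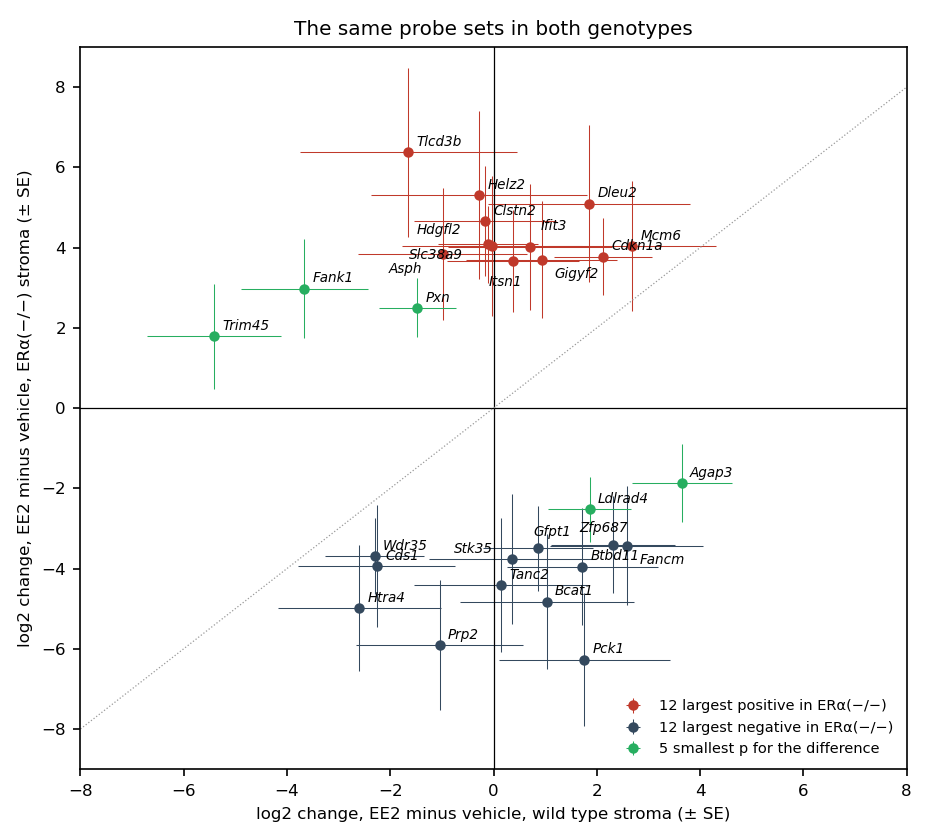
Log2 difference between EE2 and vehicle in ERα(−/−) stroma (vertical axis) against that in wild type stroma (horizontal axis) for the 12 largest positive (red) and 12 largest negative (blue) genes of ERα(−/−) stroma and the 5 genes with the smallest p for the difference (green), with SE bars and a dotted line of equality. Red and blue points scatter to both sides of 0 on the wild type axis, 6 of 12 red points to the right of it and 4 of 12 blue points to the left.

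ERKO stroma after BPA shared the 3 vehicle arrays with EE2, so the values are given side by side only. The BPA arrays were brighter, with medians of 32.7, 41.5 and 42, and a median log2 difference from vehicle of 0.36 over all genes. Each of the 12 higher genes was also positive for BPA, from 1.31 (Itsn1) to 6.43 (Helz2). Each of the 12 lower genes was also negative, from −3.72 (Pck1) to −0.11 (Fancm). With shared vehicle arrays, these signs are not independent of the choice of the genes. Cdkn1a at 1421679_a_at had 155, 210.5 and 140 after EE2, beside 103, 95.4 and 156 after BPA. Helz2 had 122, 207 and 20.3 after EE2, beside 244, 145 and 146 after BPA. Stroma after EE2 and stroma after BPA exceeded every vehicle value in both genes. Ifit3 had 84.7, 1317 and 117 after EE2, beside 173, 96.2 and 46.8 after BPA, so that BPA replicate 3 lay below the highest vehicle value. Elovl1 had 779, 377 and 449.7 after EE2 and 639, 293 and 651 after BPA, all below the vehicle values given above. In the next 3 genes stroma after BPA overlapped with vehicle stroma. Itsn1 had 124, 246 and 123 after EE2, beside 63.1, 17.1 and 26 after BPA, all of which lay below vehicle replicate 1. Stk35 had 12.6, 5.4 and 56.1 after EE2, beside 13.9, 122 and 720.3 after BPA, the last above every vehicle value. Fancm had 20, 18.2 and 1.9 after EE2, beside 155, 54.4 and 80.7 after BPA. The genes shown array by array in this paragraph were picked after their values were seen.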

How the data were processed

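Total RNA from laser-captured stroma and epithelium was amplified by the authors, who hybridized it to Affymetrix mouse arrays. The intensity values deposited by the authors are linear, and the submitters' processing notes name GCOS, while the methods name RMA in Partek and a log step. The scaling of the deposited values is not given in the sources used here. The 6 arrays hold 6 values of 0.

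Values below 0.1 were set to 0.1 before log2. The 18 stroma arrays in 6 groups were fitted on group means with limma 3.58.1 in R 4.3.3, with empirical Bayes moderation (12 residual and 4.26 prior degrees of freedom) and Benjamini-Hochberg adjustment over 45101 probe sets. The fit was tested on simulated data. Of the probe sets, 34958 had 1 gene symbol, 932 several and 9211 none, from the platform annotation, with symbols of 34754 matched to RefSeq by gene ID. Lists used the probe set with the highest mean per gene over the 18 arrays.

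Named genes were the 12 largest differences on either side under the rule given in the text, members of 32 fixed lists at an unadjusted p under 0.05, chosen receptors and targets, and the 5 smallest p for the genotype difference. The genes, lists and tests were chosen with earlier results of these data known. Some chosen genes are not reported here.

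Replicate numbers are shared between exposures, which used different dams, so they pair no EE2 array with a vehicle array. Same-numbered EE2 and vehicle arrays had correlations of deviations of −0.01 to 0.03, and with exposure and number taken as a litter across genotypes, which the sources do not state outright, the estimated correlation was 0.015. Alternatives covered quantile normalization, median centring, an offset of 16, filters, the arrays fitted, array weights, a variance trend, blocks (statmod 1.5.0), the methods' t-test and leaving out each array. Array numbers limit the precision.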

Additional observations from a re-analysis of the deposited data

Results flagged for a closer look

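Probe sets of 3 named genes had EE2 and vehicle apart in opposite directions in the genotypes, with no overlap in either. In ERα(−/−) stroma alone, the groups did not overlap for 9.42% of all probe sets. The share with opposite directions in both genotypes was not counted. Fank1 and Agap3 were named for a small p of the genotype difference, so their opposite directions partly follow from the choice. Lrpap1 was named after its values were seen. Fank1 at 1447495_at, which encodes an ankyrin repeat protein, had 52.8, 161 and 112 in EE2 stroma, against 7.6, 19.1 and 13.4 in vehicle stroma of ERα(−/−) mice, and in wild type mice 0.5, 1.4 and 1.8 after EE2, against 61, 6 and 7 after vehicle. The difference between the log2 differences was 6.64 (limma adjusted p = 1). The wild type part of it, −3.66, rests on very low values after EE2, so its size depends on how low values are treated. An offset of 16 was not run for the genotype difference. A further Fank1 probe set, 1447496_s_at, was also higher without overlap in ERα(−/−) stroma, with 84.1, 192 and 153 in EE2 stroma, against 20.9, 74.9 and 15.7 in vehicle stroma, and overlapped in wild type stroma, with 213, 29.7 and 45.8 after EE2, against 127, 30.7 and 31 after vehicle.

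Agap3 at 1434032_at, which encodes a GTPase-activating protein, had 4.9, 2.1 and 0.9 in EE2 stroma, against 8.9, 7.1 and 7.1 in vehicle stroma of ERα(−/−) mice, and in wild type mice 69.6, 30.1 and 505 after EE2, against 7.7, 8 and 8.8 after vehicle. The difference between the log2 differences was −5.51 (limma adjusted p = 1), and all ERα(−/−) values were under 10. The brighter Agap3 probe set, 1423910_at, ran the other way in ERα(−/−) stroma, with 72.3, 109.5 and 102 in EE2 stroma, against 59.8, 5.7 and 18 in vehicle stroma. Lrpap1 at 1426697_a_at, which encodes a chaperone of lipoprotein receptors, had 348, 366 and 396 in EE2 stroma, against 297, 86.5 and 96 in vehicle stroma of ERα(−/−) mice, and in wild type mice 84, 61.2 and 104 after EE2, against 300.4, 148 and 273 after vehicle. The difference between the log2 differences was 2.95 (limma adjusted p = 1). With 3 arrays per group, single arrays could not be screened as outliers.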

How the results depend on the processing

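The count of 0 probe sets at an adjusted p under 0.05 held for EE2 against vehicle in ERKO stroma under all 19 single alternatives, and for the genotype difference under all 8. Quantile normalization combined with leaving out vehicle replicate 1, a pair of choices made after seeing the data, gave 1 probe set, Afg3l2, with 49.6, 38.7 and 61.7 in EE2 stroma, against 0.6 and 2.1 in the vehicle stroma left and 41 in the array left out (limma adjusted p = 0.0427). The same combination with any other array gave 0.

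At an unadjusted p under 0.05, filters on signal cut the 1875 probe sets to 522 (305 higher, 217 lower; group mean of at least 100) and 478 (300 higher, 178 lower; at least 100 on 3 arrays), since they left 18525 and 18622 to test. The count of higher probe sets, 672, became 1151 after quantile normalization, 1047 after median centring, 1049 with only the 9 ERKO arrays and 1085 without the 2 dim wild type arrays, an alternative added after seeing the data. The cause was not tested. With 1 array left out, the counts were 1643 to 2535 in all, 502 to 1624 higher and 911 to 1384 lower. Vehicle replicate 1 set the upper end of the higher count. The share of higher among these calls moved with the scaling, 672 of 1875 as deposited, against 1151 of 2375 after quantile normalization and 1047 of 2268 after median centring.

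With the replicate number as a block, which pairs no litters here, the counts were 785 higher and 1228 lower, with 0 after adjustment. With the litter as a random block they were 671 and 1203. The methods' t-test gave 1203 probe sets on quantile-normalized values. Of the genes that the rule for named genes gave and the 6 bright ones, those at an unadjusted p under 0.05 kept their sign. This held under every single alternative, and the adjusted p stayed at 0.553 or more. For the largest differences on either side, the rule had already required groups without overlap. Their sign could thus not change when an array was left out or a constant was added to every intensity. An unadjusted p under 0.05 after quantile normalization was also part of that rule. For these largest differences the kept sign therefore followed largely from the choice and is no test of robustness. The genes otherwise named after their values were seen, such as Ctsd, Plin4, Bgn and Lrpap1, were not run under the alternatives. The count at an unadjusted p for the genotype difference was 1664 to 2269.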

Other observations

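Genes with several probe sets at a mean of 100 or more are described here, chosen after their values were seen. Of 3083 genes with at least 2 probe sets whose mean was 100 or more in EE2 or vehicle stroma of ERα(−/−) mice, 176 had 1 or more at an unadjusted p under 0.05. Of these, 11 had 2 such probe sets in 1 direction, 10 higher and 1 lower in EE2 stroma, and 0 had them in opposite directions. They are Ap2b1, Ctsz, Fank1, H2-K1, Hipk2, Ifi27, Lrpap1, Mrps5, Rapgef3 and Rbm39 on the higher side and Elovl1 on the lower side. In Ctsz, Mrps5, Rapgef3 and Rbm39 the groups overlapped at both probe sets. Probe sets at that level numbered 2 to 4 per gene, but 8 for Hipk2 and 11 for Rbm39. Of single probe sets, 3.17% passed that p at a higher group mean of 100 to 500, and 1.37% at 500 or more. How many such genes to expect without an effect was not estimated. For BPA minus vehicle in ERKO stroma, which uses the same 3 vehicle arrays, each of these probe sets had a log2 difference of the same sign. On the higher side it was 0.44 (Lrpap1) to 3.19 (Ctsz), beside 1.45 (Lrpap1) to 3.59 (Rbm39) for EE2. For Elovl1 it was −2.65 and −2.15, beside −2.81 and −2.11 for EE2. The agreement between probe sets was thus not particular to EE2. Probe sets of a gene can share sequence, and all adjusted p were 1.

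Ifi27, an interferon-inducible gene outside the list above, had 354, 203 and 311 in EE2 stroma, against 35.6, 129.6 and 26.6 in vehicle stroma at 1452956_a_at, and 1057, 549 and 872 in EE2 stroma, against 159, 584 and 110.4 in vehicle stroma at 1454757_s_at. EE2 replicate 2, the array of high interferon signal, had the lowest EE2 value in both, and vehicle replicate 2 was the high vehicle array. H2-K1, a class I histocompatibility gene, had 439.8, 378 and 422 in EE2 stroma, against 251, 176 and 52.7 in vehicle stroma at 1451931_x_at, with close EE2 values and no overlap, and a log2 difference of 1.64 ± 0.71 (SE; 95% interval 0.13 to 3.15). Its probe set 1427746_x_at had 148, 136 and 117 in EE2 stroma, against 18.7, 2.8 and 83 in vehicle stroma. The brighter H2-K1 probe set of the list overlapped between groups.

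Ap2b1, the β subunit of the AP2 clathrin adaptor, had 323, 528 and 166 in EE2 stroma, against 87.7, 97.9 and 93.6 in vehicle stroma at 1452292_at and 165, 101 and 259 in EE2 stroma, against 64, 23.8 and 39.6 in vehicle stroma at 1427077_a_at, neither with overlap. Elovl1 at 1443820_x_at had 255, 97.8 and 146 in EE2 stroma, against 757, 1013 and 1619.8 in vehicle stroma, a log2 difference of −2.81 ± 0.96 (SE; 95% interval −4.84 to −0.77), beside the bright probe set given above, while its probe set 1425676_a_at overlapped between the groups with a log2 difference of −0.48.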
